A study of Homo sapiens with 5 samples.

Results

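Summits of ChIP-seq peaks lying within 1 Mb of a chromosome end were described in HCT116 cells, an established human line from a colorectal cancer. ChIP-seq sequences the DNA that an antibody pulls down with chromatin, and a summit is the position of the highest signal in a peak. The lists covered H3K27ac and KAT7, each in cells transfected for 48 h with control siRNA or with ENO1-IT1 siRNA, and input DNA sequenced without an antibody. All groups shared the same cell line, and the label of the input does not say which siRNA its cells had received. ENO1-IT1 is a long noncoding RNA named after its place in an intron of ENO1. Each group held 1 library, so no value below carries a test against replicate error. Members were chosen by position alone, on chromosomes 1 to 22 of hg19, with the starts of the p arms of 13, 14, 15, 21 and 22 left out because their short arms are not assembled. This left 39 ends, 17 on p arms and 22 on q arms, named below by chromosome and arm (16p, 9q). They held 3823 of the 209263 summits in all 5 lists. The members were 943 of 29429 control H3K27ac summits, 959 of 31839 knockdown H3K27ac summits, 1333 of 122439 control KAT7 summits, 541 of 24611 knockdown KAT7 summits and 47 of 945 input summits.

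Human chromosomes end in telomeres, long arrays of a short repeat bound by the shelterin complex. Next to them lie subtelomeres, patchworks of segments copied between chromosome ends, among them genes for olfactory receptors and zinc finger proteins. Farther in, many ends are rich in GC bases and in genes. H3K27ac, acetylation of lysine 27 of histone H3, marks active promoters and enhancers. KAT7, also called HBO1, is a histone acetyltransferase of the MYST family that works in complexes with BRPF or JADE proteins and acetylates histones H3 and H4.

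The lists gave 1 position of 1 bp and 1 score per peak, called for each library on its own. The score was the authors' -log10 of a p or q value, in the form that MACS2 gives. It grows with sequencing depth, which is unknown here, so scores rank or filter summits within a list and are on no common scale between lists. A list can therefore be longer for reasons of depth or calling. Intervals are exact 95% intervals that cover counting error only, and neighbouring summits are not independent. The knockdown was not checked, because the lists hold no transcript levels. Names of peaks start with KO in both control and knockdown lists, so the groups rest on the sample titles.

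H3K27ac was listed more densely near chromosome ends than along the rest of the autosomes in both conditions. KAT7 was listed slightly less densely there in the control and more densely after knockdown. Control H3K27ac reached 24.2 summits per Mb within 1 Mb of an end and 9.76 over the rest, a ratio of 2.48 (95% interval 2.32 to 2.64). Knockdown H3K27ac gave 24.6 and 10.5 per Mb, a ratio of 2.33 (2.18 to 2.49). The intervals of these ratios overlap. Control KAT7 gave 34.2 and 40.2 per Mb, a ratio of 0.850 (0.805 to 0.897), and knockdown KAT7 13.9 and 7.93 per Mb, a ratio of 1.75 (1.60 to 1.90). The 2 KAT7 lists thus departed from their own background in opposite directions. The direction of the control list was not clear among its stronger summits, with intervals that hold 1. The ratio was 0.942 (0.854 to 1.04) at a score of 3 or more and 1.07 (0.783 to 1.43), over 46 summits, at 10 or more. Input DNA was densest of all relative to its background, with 1.21 and 0.269 summits per Mb and a ratio of 4.48 (3.26 to 6.02), although it held few summits. When summits near input, defined as within 1000 bp of an input summit, were removed, the ratios of the 4 immunoprecipitated lists were 2.46, 2.31, 0.846 and 1.72 in the same order.

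The scores of members were close to those of their own list. For control H3K27ac the median was 7.49 among members and 7.14 over the rest, and 36.5% (33.4 to 39.6%) of members scored at least 10 against 31.3% of the rest. For knockdown H3K27ac the medians were 9.27 and 8.02, with 46.9% (43.7 to 50.1%) and 40.3% at 10 or more. H3K27ac members thus leaned to higher ranks in both lists. The medians of the KAT7 lists were equal between members and rest, at 2.68 in the control and 7.67 after knockdown. In the control, 3.45% (2.54 to 4.58%) of KAT7 members and 2.74% of the rest scored at least 10, and after knockdown 40.3% (36.1 to 44.6%) and 37.0%. Input members ranked low in their list, with a median of 12.3 against 20.8 and 66.0% against 90.8% at 10 or more.

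The density of H3K27ac was higher from 500 kb to 1 Mb than in the bands from 20 to 500 kb, where it rose and fell. In the control it was 23.1 summits per Mb in the last 20 kb, 12.8 at 20 to 50 kb, 20.5 at 50 to 100 kb, 14.02 at 100 to 250 kb, 22.9 at 250 to 500 kb and 29.0 at 500 to 1000 kb. After knockdown the same bands gave 20.5, 18.8, 16.4, 15.9, 22.97 and 29.3 per Mb. The bands within 100 kb rest on 15 to 40 summits each. Bands were counted at full length, including the run of unknown bases with which hg19 begins most chromosomes. Such bases can hold no summit. The density of the last 20 kb is therefore understated and cannot be ranked against the other bands. The band just beyond the limit, from 1 to 2 Mb, was as dense, with 28.4 per Mb in the control and 29.7 after knockdown. Density then fell to 16.0 and 17.5 per Mb between 2 and 5 Mb and to 12.3 and 13.2 between 5 and 10 Mb. The gain over the rest of the autosomes was therefore shared with the neighbouring megabase. Just inside the limit, from 900 to 1000 kb, lay 117 control and 124 knockdown H3K27ac summits, and just outside it, from 1000 to 1100 kb, 105 and 107.

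KAT7 followed another course with distance. Control KAT7 gave 25.6 summits per Mb in the last 20 kb, a ratio of 0.638 (0.389 to 0.985) to the rest of the autosomes. Of its 20 summits there, 30% scored at least 10. Unknown bases counted in the last 20 kb lower the densities of both KAT7 lists there, so the control ratio shows no depletion. Control KAT7 fell to 8.55 per Mb at 20 to 50 kb, a ratio of 0.213 (0.102 to 0.391). It was 25.6 per Mb again at 50 to 100 kb and between 35.0 and 37.8 per Mb from 100 kb to 1 Mb. Knockdown KAT7 had its highest density within the limit in the last 20 kb, 24.4 per Mb or 19 summits, close to the control number but a ratio of 3.07 (1.85 to 4.80) to its own rest. Of these 18 scored at least 10. Between 20 and 50 kb it fell to 7.69 per Mb, a ratio of 0.969 (0.443 to 1.84), and from 50 kb to 1 Mb it stayed between 13.1 and 14.3 per Mb. Beyond the limit knockdown KAT7 was denser still, at 17 per Mb from 1 to 2 Mb, and was 13.6 per Mb from 2 to 5 Mb. Against the stretch from 1 to 5 Mb of the same ends its ratio was 0.961 (0.874 to 1.06), so the excess of knockdown KAT7 was spread over several megabases and was not particular to the last 1 Mb. The corresponding ratios were 1.26 for control and 1.195 for knockdown H3K27ac and 0.919 for control KAT7. Just inside the limit lay 133 control and 54 knockdown KAT7 summits, and just outside it 114 and 58.

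**Figure D1:**
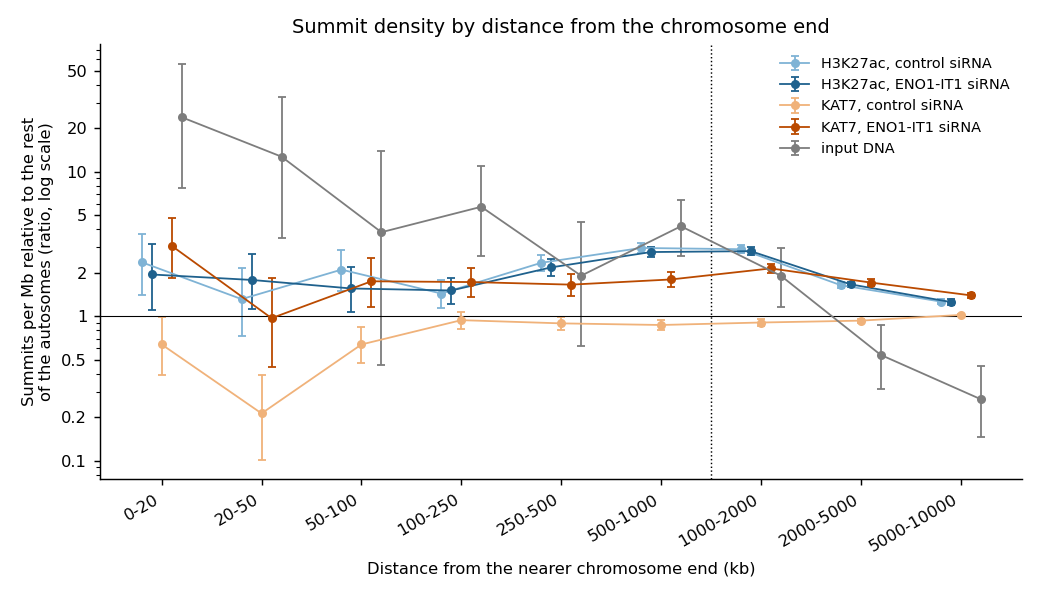
Summits per Mb in bands of distance from the nearer chromosome end (kb), divided by the density over the rest of the autosomes (log scale), for the 5 lists. Points are ratios, bars are exact 95% intervals for counting error only, and the dotted line is the 1 Mb limit. Beyond 20 kb from the end, H3K27ac is highest between 500 kb and 2 Mb in both conditions, and control KAT7 dips to 0.213 at 20 to 50 kb. Input DNA rises to 23.8 in the last 20 kb, where it has 5 summits. Unknown bases counted in the last 20 kb lower the values there.

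The ends differed strongly from each other in H3K27ac, and they did so alike in both conditions. Counts ran from 0 to 62 summits per end in the control and from 0 to 64 after knockdown, with a median of 20 in each. The same 9 ends, 8q, 11p, 16p, 16q, 17q, 19p, 19q, 20q and 22q, led both lists and held 50.6% of control and 50.99% of knockdown members. The highest were 8q with 62 control and 64 knockdown summits, 11p with 62 and 63, and 20q with 59 and 61. Over the 39 ends the counts of the 2 H3K27ac lists had a Spearman rho of 0.97, given as a description, since all ends of a list share its library. Of the 39 ends, 30 in the control and 29 after knockdown were denser than the rest of their own chromosome. The excess was thus found at most ends and was uneven in size. How many 1 Mb windows elsewhere were denser than their chromosome was not counted, so these numbers of ends have no background beside them. Of the arms known to be gained in HCT116, 8q, 16q and 17q were among the leading ends. The gained 10q had 15 control and 17 knockdown summits, below the median of 20. The leading ends 11p, 16p, 19p, 19q, 20q and 22q are not among these arms, and copy number was not tested. Without 8q, 10q, 16q and 17q the ratios to the rest were 2.28 in the control and 2.10 after knockdown.

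RefSeq for GRCh38.p14 names the genes next to each end, in an assembly other than that of the lists, so that summits were not assigned to genes. Its 11p end holds SIRT3, a mitochondrial deacetylase, the interferon-induced IFITM genes and HRAS, a RAS GTPase. Its 8q end holds ribosomal protein gene RPL8, the DNA helicase gene RECQL4 and HSF1, the transcription factor of the heat shock response. Its 20q end holds RTEL1, a helicase known for telomere maintenance, and its 16p end holds the alpha-globin cluster with HBA1 and HBA2. At 16p, 58 control and 54 knockdown H3K27ac summits were listed, with highest scores of 24.97 and 38.0. The leading ends carried many H3K27ac summits of middling score. At 8q and 11p the highest control scores were 37.7 and 28.9, far below the highest control score among all members, 217.

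At the other extreme, 3p had no H3K27ac summit in either list, 14q had 1 in the control and 2 after knockdown, and 4q had 5 and 4. Among the first genes from the 3p end are CHL1 and CNTN6, which encode adhesion molecules of neurons. Whether both lie within the last 1 Mb was not checked. At 3p, KAT7 was listed at 47 positions in the control, none scoring at least 10, and at 5 after knockdown. A single position there, 1 of the 47, had a knockdown summit within 500 bp. The 4q end carries DUX4, a homeobox gene within the D4Z4 repeat, and FRG1. It held the most input summits of any end, 9, together with 15 control and 10 knockdown KAT7 summits. The absence of H3K27ac at 3p thus stood beside a control KAT7 count above the median of 34 per end, while 4q was poor in both.

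**Figure D2:**
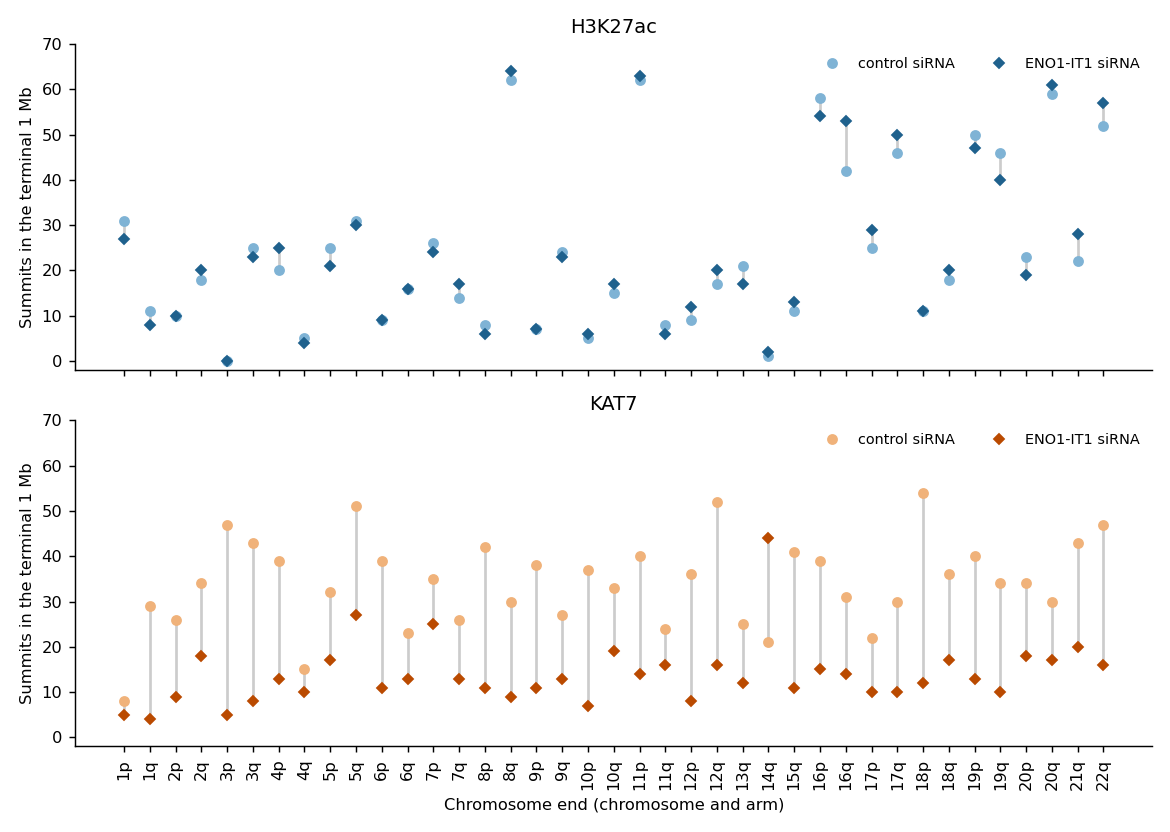
Number of summits in the terminal 1 Mb of each of the 39 chromosome ends, with control siRNA as circles and ENO1-IT1 siRNA as diamonds, for H3K27ac (top) and KAT7 (bottom). The H3K27ac symbols of an end lie close together, from 0 at 3p to over 60 at 8q and 11p, while KAT7 has fewer knockdown than control summits at every end except 14q, with 21 and 44.

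KAT7 counts were spread more evenly over the ends, and the conditions did not share a ranking. Control KAT7 ran from 8 summits at 1p to 54 at 18p, with a median of 34 per end, and 12q (52) and 5q (51) followed 18p. The lowest after 1p were 4q (15) and 14q (21). Knockdown KAT7 ran from 4 at 1q to 44 at 14q, with a median of 13, and the next highest were 5q (27) and 7p (25) and the next lowest 1p and 3p with 5 each. The Spearman rho between the KAT7 lists over the 39 ends was 0.12, and 0.22 with summits scoring at least 10. Of the 9 ends with the most summits in each KAT7 list, 2 were the same, 5q and 21q. At 12 of the 39 ends control KAT7 was denser than on the rest of its own chromosome, and at 32 ends knockdown KAT7 was. The share of 1 Mb windows elsewhere was not counted for KAT7 either.

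At 1 end, 14q, the knockdown list held more KAT7 summits than the control list, 44 against 21, a ratio of 2.10 (1.22 to 3.71). Such windows were rare, as 16 of 2693 windows of 1 Mb along the rest of the autosomes (0.594%) held more knockdown than control KAT7 summits, and 2 of the 2693 had a knockdown count of 44 or higher. With 1 end of 39, the share among ends cannot be set apart from that background. The genes next to the 14q end are the variable segments of the immunoglobulin heavy chain, IGHV, which are rearranged in B cells. Of the 44 knockdown summits 31 scored at least 10, with a median of 14.6. Over the rest of the autosomes 37.0% of the knockdown list did, with a median of 7.67. Of the 21 control summits 1 scored at least 10, with a median of 2.68, against 2.74% and a median of 2.68 over the rest. The scores of the 2 lists are on no common scale. The 44 knockdown summits of 14q lay from 89743 to 978212 bp from the end. They fell in 10 of the 10 bins of 100 kb, with at most 7 in a bin. Only 4 of them had a control KAT7 summit within 500 bp, and 2 had a knockdown H3K27ac summit. The pattern was thus a spread of separate KAT7 calls with almost no H3K27ac and no input summit. In the next 1 Mb inwards the knockdown list again held more, 51 against 24, but 6 of the 51 scored at least 10. From 2 to 3 Mb the counts were 21 and 30, and from 3 to 4 Mb 11 and 45. For comparison, more knockdown than control H3K27ac summits were found at 18 of the 38 ends with any, against 53.5% of the windows of the rest.

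The number of KAT7 members after knockdown was 0.406 (0.367 to 0.449) times the control number, against 0.197 over the rest of the autosomes. The counts were 541 and 1333 near the ends and 22511 and 114105 elsewhere. The whole interval near the ends lay above the value of the rest. The direction depended on the score minimum, near the ends as elsewhere. At a score of at least 3 the ratio was 1.197 near ends and 0.666 over the rest, at 10 it was 4.74 (46 control and 218 knockdown summits) and 2.66, and at 20 it was 15.3 (8 and 122) and 5.33. When the longer list was cut to its highest scores, so that both had the same length, it was 1.95 and 0.963. At each of these settings the ratio near the ends was above that of the rest by a factor of more than 1.5. Because a score minimum is not the same cut in both libraries, the ratios show no change in enrichment. Without 14q the ratio was 0.379. Within 2 Mb of an end it was 0.438 (0.409 to 0.468) against 0.194 over the rest. The band from 1 to 2 Mb alone held 663 knockdown and 1419 control KAT7 summits. The difference from the rest was thus not particular to the last 1 Mb. For H3K27ac the ratio was 1.02 (0.929 to 1.11) near ends and 1.08 over the rest, and at a score of at least 10 it was 1.31 and 1.39. The H3K27ac interval near the ends held the value of the rest.

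**Figure D3:**
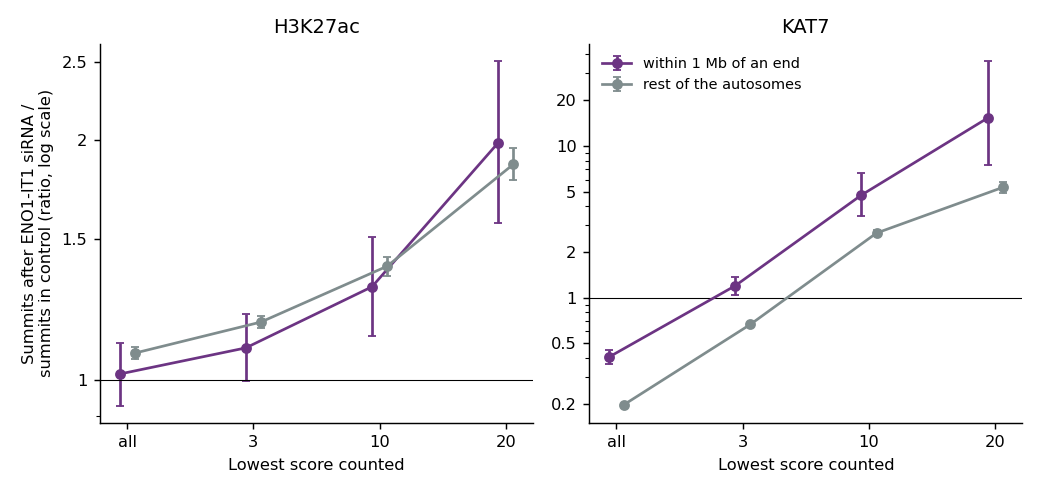
Ratio of the number of ENO1-IT1 siRNA summits to control siRNA summits (log scale) at increasing score minimums, for H3K27ac (left) and KAT7 (right). Bars are exact 95% intervals for counting error only. For KAT7 the points within 1 Mb of an end lie above those of the rest at every minimum, from 0.406 against 0.197 for all summits to 15.3 against 5.33 at 20, and for H3K27ac the pairs lie close together.

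Control KAT7 positions near chromosome ends were listed again after knockdown more often than elsewhere, whereas over the whole 1 Mb the shares of H3K27ac were near their background. A position counted as listed again, or shared, where the nearest summit of the other list was at most 500 bp away. Of the 1333 control KAT7 members, 221 had a knockdown KAT7 summit, 16.6% (14.6 to 18.7%), against 6.46% over the rest and 6.58% over all autosomal control KAT7 summits. Of the 541 knockdown KAT7 members, 210 had a control KAT7 summit, 38.8% (34.7 to 43.1%), against 32.0% over the rest and 32.1% over all. Of the 943 control H3K27ac members 668 had a knockdown summit, 70.8% (67.8 to 73.7%), against 71.7% over the rest and 71.7% over all. Of the 959 knockdown H3K27ac members 644 had a control summit, 67.2% (64.1 to 70.1%), against 64.3% over the rest and 64.4% over all. The KAT7 shares near the ends thus lay above their background, while the H3K27ac shares were near it. Within 0.5 Mb of an end the H3K27ac shares were above it too, at 76.7% (72.1 to 80.9%) against 71.7% from the control side and 72.6% (67.9 to 77.0%) against 64.3% from the knockdown side. Within 2 Mb the control H3K27ac share was below it, at 69.5% (67.4 to 71.5%) against 71.9%. The KAT7 shares within 2 Mb were 16.9% against 6.32% from the control side and 37.2% against 31.9% from the knockdown side. The KAT7 difference was thus not particular to the last 1 Mb. Over the 37 ends with at least 20 control KAT7 summits the share listed again ran from 2.13% at 3p to 36.7% at 20q, with a median of 15.4%. For H3K27ac, over 20 ends, it ran from 54.2% at 9q to 86.4% at 21q.

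KAT7 members also lay at H3K27ac more often than other KAT7 summits did. In the control 179 of 1333 KAT7 members had an H3K27ac summit within 500 bp, 13.4% (11.6 to 15.4%), against 3.59% over the rest and 3.71% over all. After knockdown the count was 175 of 541, 32.3% (28.4 to 36.5%), against 18.9% over the rest and 19.2% over all. H3K27ac itself was 2.48 times as dense near the ends in the control and 2.33 times after knockdown, and its part in these shares was not tested. From the H3K27ac side, 17.8% of control members had a KAT7 summit of the same condition, against 14.4% of the rest and 14.5% of all, and after knockdown 17.8%, against 13.8% and 13.9%. The difference was thus larger seen from KAT7 than from H3K27ac. At a score of at least 10, 19 of 46 control KAT7 members (41.3%) lay at H3K27ac, against 18.9% of the rest, and 50.9% of knockdown members, against 32.8%.

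Control KAT7 members at H3K27ac were listed again far more often than those without it. Of the 179 members at H3K27ac, 132 were listed again after knockdown, 73.7% (66.7 to 80.0%), against 67.8% of such summits over the rest. Of the 1154 members without H3K27ac, 89 were listed again, 7.71% (6.24 to 9.41%), against 4.17% over the rest. The interval of the class at H3K27ac held the value of the rest, and that of the class without it did not. From the knockdown side the shares near ends and elsewhere were closer, with 72.0% against 70.4% at H3K27ac and 22.95% against 23.1% without it. At 104 of the 943 control H3K27ac members all 4 immunoprecipitated lists had a summit within 500 bp, 11.03% against 7.98% over the rest.

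For KAT7 and control H3K27ac, sharing was highest within 50 kb of the end, a band of few summits. There 18 of 30 control KAT7 members were listed again after knockdown, 60.0% (40.6 to 77.3%). The share was 17.3% from 50 to 250 kb, 12.9% from 250 to 500 kb and 16.3% from 500 to 1000 kb. The share of control KAT7 members at H3K27ac was also 60.0% within 50 kb, and 8.86%, 12% and 13.9% in the other bands. For control H3K27ac the share listed again was 84.8% (68.1 to 94.9%) within 50 kb, then 77.9%, 74.9% and 66.9%. Knockdown H3K27ac listed in the control was nearly flat to 500 kb, at 73.7%, 72.8% and 72.3%, then 63.5%. Of the 30 control KAT7 members within 50 kb, 17 lay in the last 15 kb, which hold the terminal summits described below. The KAT7 shares of that band thus rest largely on terminal summits, and the stretch from 15 to 50 kb was not counted apart. Over the whole 1 Mb without the last 15 kb, 15.7% of control KAT7 members were listed again and 12.5% lay at H3K27ac.

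**Figure D4:**
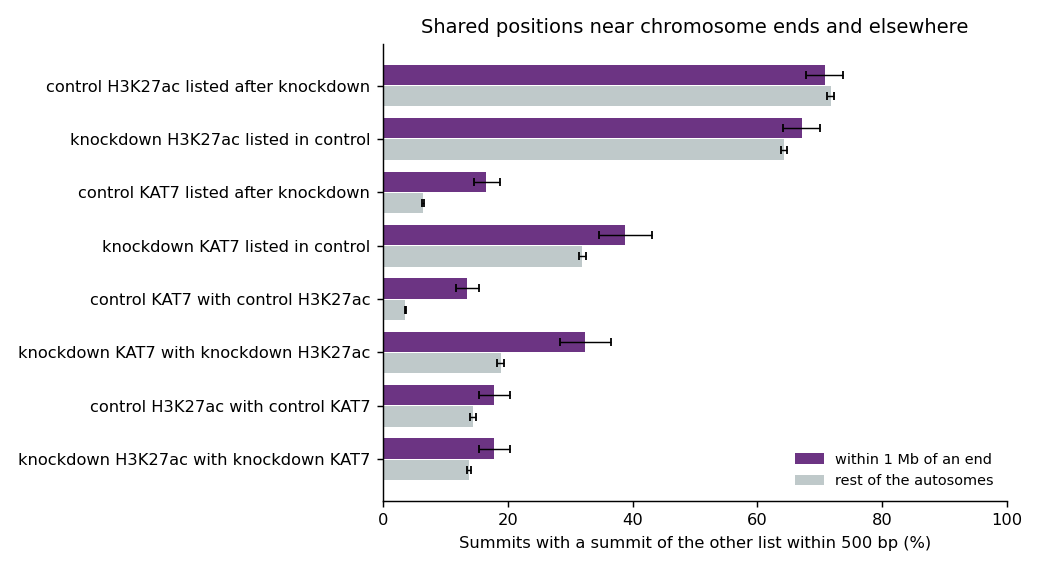
Share of summits (%) with a summit of another list within 500 bp, for summits within 1 Mb of a chromosome end and for the rest of the autosomes, in 8 comparisons of the 4 immunoprecipitated lists. Bars are shares and lines exact 95% intervals for counting error only. The KAT7 pairs differ most, with 16.6% against 6.46% for control KAT7 listed after knockdown and 13.4% against 3.59% for control KAT7 at H3K27ac, while the H3K27ac pairs between conditions lie close together.

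At 13 chromosome ends all 4 immunoprecipitated lists had a summit within 15 kb of the end. The 15 kb limit was chosen after the positions had been seen. These ends were 1p, 1q, 2p, 4p, 5p, 7p, 7q, 9p, 12q, 15q, 18p, 19q and 21q. Another 2 ends had a summit in some of the lists, 10q in both KAT7 lists and 17q in both H3K27ac lists and knockdown KAT7, and 24 ends had none. At the 13 ends the highest-scored summits lay 10029 to 11652 bp from the end, and those of the 4 lists fell within 11 to 559 bp of each other, with a median of 71 bp. The hg19 assembly begins most chromosomes with a run of unknown bases, so that such positions are among the outermost assembled ones. Telomere repeats are known to be placed there at many ends, which was not looked at, as hg19 sequence was not used here.

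The terminal summits ranked high in the knockdown KAT7 list at every end and unevenly in the other lists. Over the 13 ends the highest-scored terminal KAT7 summit after knockdown stood above 87.4% to 99.4% of that list, with a median of 96.4%. In the control KAT7 list the range was 0.0106% to 99.8%, with a median of 93.1%, and at 7q and 15q the control score, 1.31, was among the lowest in the list. For H3K27ac the ranges were 26.6% to 99.9% in the control, with a median of 93.6%, and 44.4% to 99.9% after knockdown, with a median of 92.1%. Ranks come from lists of different lengths and show no change between conditions. Of all 16 knockdown KAT7 summits within 15 kb of an end, 15 scored at least 10. Their median score was 58.3, against 7.67 for the other members of the list.

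The terminal summits of 1p, 1q, 5p and 12q had the highest H3K27ac scores, while 7p led in knockdown KAT7. At 1p the scores were 158 for control H3K27ac, 227 for knockdown H3K27ac, 28.8 for control KAT7 and 120.3 for knockdown KAT7. At 5p they were 148, 266, 28.8 and 79.4 in the same order, and at 1q 104, 173, 11.5 and 99.9. At 12q they were 126, 137, 16.8 and 58.7. These 4 ends were also the only ones of the 39 with an input summit within 15 kb, with input scores of 12.5 at 1p, 23.1 at 5p, 9.65 at 1q and 13.4 at 12q. The input summits lay within 140 bp of the immunoprecipitated ones at 1p and stood above 9.21% to 57.0% of the input list. The 4 ends with the highest control H3K27ac scores were thus those where input DNA also gave a peak, and the part of this in the scores was not tested. At the other 9 ends, without an input summit in the last 15 kb, control H3K27ac scored 4.23 to 37.7 and knockdown KAT7 26.6 to 122. The highest of these was 7p, with 37.7 and 50.4 for H3K27ac and 18.3 and 122 for KAT7.

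The summits nearest to an end in the H3K27ac lists were at 17q. In the control they lay 205, 9228 and 9818 bp from that end, with scores of 5.03, 5.03 and 2.78, and after knockdown the nearest lay at 8894 bp with a score of 7.25. The knockdown KAT7 list had a summit at 17q 182 bp from the end (score 15.7), 23 bp from the outermost control H3K27ac summit. In the KAT7 control list the nearest summits were at 19q (10022 bp), 18p (10029 bp) and 7q (10072 bp).

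**Figure D5:**
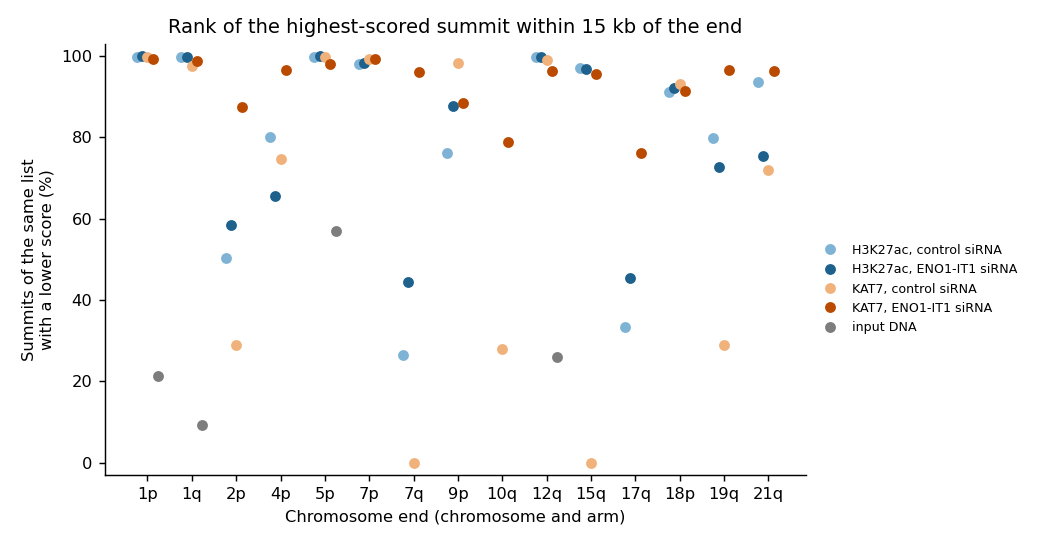
Rank of the highest-scored summit within 15 kb of the end, as the share of the same list with a lower score (%), at the 15 ends with such a summit in any list. Colours mark the lists. The 15 knockdown KAT7 points lie at 76.1% or higher, control KAT7 points range from near 0% at 7q and 15q to 99.8% at 5p, and input DNA has points at 4 ends, none above 57.0%.

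Farther from the ends, 3 sites where all 4 immunoprecipitated lists placed a summit at nearly the same base held the highest control H3K27ac scores of the members. The site on chromosome 21 at 47400805 (21q, 729091 bp from the end) had the highest control H3K27ac score among members, 217, with 219 after knockdown, 26.5 for control KAT7 and 138 for knockdown KAT7. The lists placed it within 60 bp. The site on chromosome 6 at 469119 (6p) scored 206, 200.2, 22.7 and 99.98 in the same order. The site on chromosome 6 at 170489311 (6q, 625757 bp from the end) scored 178, 176, 42.1 and 182, and led the knockdown KAT7 members. No input summit lay within 27 kb of these sites: the nearest were 27783 bp away at 6q, 97246 bp at 6p and 4174525 bp at 21q. RefSeq for GRCh38.p14 gives DUSP22, a phosphatase, and IRF4, a transcription factor of lymphocytes, next to the 6p end, and TBP, the TATA-binding protein, near the 6q end. Other leading members were on chromosome 12 at 95633 (12p, knockdown H3K27ac, score 186), with summits of the other 3 lists 5 to 18 bp away, and on chromosome 13 at 114212192 (13q, knockdown KAT7, score 119). The top 100 autosomal scores held 8 members for control H3K27ac, 8 for knockdown H3K27ac, 1 for control KAT7 and 2 for knockdown KAT7. Members made up 3.29%, 3.11%, 1.15% and 2.35% of all autosomal summits of these lists. The interval of each H3K27ac count, 3.52 to 15.2%, lay just above its list share. The KAT7 counts were near theirs, with intervals that held them. The top 1000 read differently. Members made up 3.5% (2.45 to 4.83%) for control H3K27ac and 4.1% (2.96 to 5.52%) for knockdown H3K27ac, with intervals that held the list share. For knockdown KAT7 it was 3.6% (2.53 to 4.95%), above its list share. Control KAT7 gave 1.4% (0.767 to 2.34%), with an interval that held its share. Input had 3 members in its top 100, against 5.80% of its list.

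The highest-scored H3K27ac members listed in a single condition scored below the leading shared sites, and each had a summit of the other condition not far beyond 500 bp. The highest control-only H3K27ac member, on chromosome 16 at 89627518 (16q, score 33.0), had a knockdown summit 1358 bp away (score 34.7). On chromosome 11 a control-only summit at 393632 (11p, score 28.9) lay 726 bp from a knockdown-only one at 394358 (score 38.0), and the control-only summit at 707290 (score 28.0) had a knockdown summit 572 bp away. The highest knockdown-only members, on chromosome 20 at 62495540 (20q, score 41.3) and chromosome 22 at 50354600 (22q, score 38.9), had control summits 535 and 858 bp away. Each of these 6 summits thus had H3K27ac of the other condition within 1358 bp.

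The highest-scored KAT7 members listed in a single condition lay farther from the other list. The highest control-only member was on chromosome 18 at 71573 (18p, score 44.7), the top score of all control KAT7 members, and the nearest knockdown KAT7 summit was 7869 bp away (score 70.9). It had no H3K27ac summit closer than 7826 bp, and an input summit with a score of 76.4 lay 36675 bp away. The next, on chromosome 15 at 101892349 (15q, score 22.8) and chromosome 5 at 98969 (5p, score 18.3), were 60869 and 48576 bp from knockdown KAT7 and more than 17 kb from H3K27ac. After knockdown only, the highest were on chromosome 6 at 898064 (6p, score 50.5), chromosome 14 at 107035189 (14q, score 35.9) and chromosome 7 at 216657 (7p, score 33.5). The 6p and 7p summits lay 6 and 12 bp from a knockdown H3K27ac summit, and the 6p summit lay 12 bp from a control H3K27ac summit too. The 14q summit lay 160106 bp from the nearest one. The 3 named control-only summits were thus far from H3K27ac, but both classes held members at it. Of all control KAT7 members at H3K27ac, 132 of 179 were listed again, and the others were control-only. Of knockdown KAT7 members at H3K27ac, 126 of 175 were listed in the control, and the others were knockdown-only.

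Few members lay near input. Input summits were found within 1000 bp of 0.954% of control H3K27ac members (9 summits), 0.834% of knockdown H3K27ac (8), 0.525% of control KAT7 (7) and 1.66% of knockdown KAT7 (9). Over the rest of the autosomes it was 0.112%, 0.107%, 0.0298% and 0.298%. Each share was thus several times that of the rest but concerned at most 9 summits. Among members scoring at least 10 the shares were 1.74%, 1.56%, 10.9% and 3.21% in the same order. The rest gave 0.161%, 0.133%, 0.0961% and 0.240%. The control KAT7 value was 5 of 46 summits (3.62 to 23.6%), so strong control KAT7 members lay near input more often than all members. Of the 47 input members, 13 lay near a summit of at least 1 immunoprecipitated list and 7 near all 4. They were found at 20 of the 39 ends, led by 4q with 9, 1p with 7 and 9q with 4, as many as at 10q. The highest-scored lay on chromosome 1 at 567606 (1p, score 81.3), 566210 (score 47.9) and 726959 (score 40.7), chromosome 18 at 108248 (18p, score 76.4) and chromosome 10 at 135500791 (10q, score 71.1). None of these 5 lay within 2 kb of a summit of another list.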

How the data were processed

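Chromatin from HCT116 cells gave 5 libraries, 1 per group. Per the submitters' processing notes, Bowtie, MACS2 and the build hg19 were used. The sources used here do not give versions, options, the calling control or the treatment of reads matching several places. A tag in the deposited peak names stands for removed duplicates. The deposited scores are the authors' -log10 p or q values, and which of these is not stated.

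Chromosome lengths of hg19 came from a table in the GenomeInfoDb package, and all summits lay within them. Positions count from 1. Densities, shares and ratios were computed with SciPy 1.17.1, pandas 2.3.3 and numpy 2.4.6 in Python 3.11.15, plotted with matplotlib 3.10.9, and tested on simulated lists. The 39 ends cover 39 Mb, 1.36% of autosomal length. These lengths include unassembled bases. Shares carry Clopper-Pearson intervals and ratios exact conditional binomial intervals, both at 95%. Named regions are, per list, the 5 highest-scored members, the 3 nearest an end and the 3 ends with most and fewest summits. Per antibody they are the 3 highest-scored members in control only, knockdown only and both, and the 3 highest with all 4 lists. The members, rules and lists were chosen with earlier results of these data known. No gene annotation of hg19 was used. Gene names come from RefSeq for GRCh38.p14, and no sequence is shown.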

Additional observations from a re-analysis of the deposited data

How the results depend on the processing

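Directions held under most settings, and the sizes moved with the score minimum and with what counted as near an end. For density relative to the rest, in the order control H3K27ac, knockdown H3K27ac, control KAT7 and knockdown KAT7, a score of at least 10 gave 2.88, 2.72, 1.07 and 1.91, the control KAT7 value turned with an interval (0.783 to 1.43) that holds 1, and input gave 3.25. A score of at least 3 gave 0.942 for control KAT7. With 0.5 Mb the H3K27ac ratios were 1.96 and 1.86. With 2 Mb they were 2.76 and 2.64, knockdown KAT7 1.97 and input 3.23. Against 1 to 5 Mb of the same ends the 4 values were 1.26, 1.195, 0.919 and 0.961, the last turned. Against the same chromosomes H3K27ac gave 2.19 and 2.07, and without 8q, 10q, 16q and 17q 2.28 and 2.10.

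The shares moved with the distance counted as shared. At 100, 250, 1000 and 2000 bp, control H3K27ac listed after knockdown was 36.8%, 56.6%, 87.7% and 93.7%, and knockdown H3K27ac listed in the control 36.2%, 55.6%, 79.6% and 85.0%. At 100 and 2000 bp control KAT7 listed after knockdown was 13.4% and 19.6%, and knockdown KAT7 listed in the control 33.1% and 44.0%. KAT7 at H3K27ac was 6.90%, 9.98%, 16.1% and 18.2% in the control and 16.5%, 26.8%, 37.2% and 41.4% after knockdown. Among summits scoring at least 10 these 6 values were, in this order, 82.6%, 90.4%, 45.7%, 52.3%, 41.3% and 50.9%. With 0.5 Mb the H3K27ac shares were 76.7% and 72.6%, above the 71.7% and 64.3% of the rest. With 2 Mb the control H3K27ac share was 69.5% (67.4 to 71.5%), below the 71.9% of the rest. The knockdown H3K27ac share was then 64.7% against 64.3%. At 100, 250, 1000 and 2000 bp and at the score minimum, each share given here was above that of the rest, whether or not beyond its interval.

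The knockdown to control ratio of KAT7 numbers turned to 1.197, 4.74 and 15.3 at scores of at least 3, 10 and 20, and to 1.95 at equal list length. That of H3K27ac was 1.31 and 1.98 at 10 and 20. Leaving out 14q, tried for these 2 ratios, or the last 15 kb, tried for all results, moved none beyond its interval. Both were added after seeing the data. No paired analysis was possible because each group has 1 library. Depth is unknown, so a position missing from a list may lie below what that library could show.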
